A study of Homo sapiens with 9 samples.

Results

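Netrins and Slits are secreted guidance proteins, and the 10 genes described here encode 3 of these ligands and 7 of their receptors. The ligands were NTN1, NTN4 and SLIT2, the netrin receptors were DCC, NEO1, UNC5A, UNC5B, UNC5C and UNC5D, and ROBO1 is a receptor for Slits. They were chosen by name, by a rule that uses none of their values. That rule speaks of guidance and dependence receptors often silenced in colon cancer. It also lists the 3 ligands, and silencing was not checked for each gene. All 10 were found among the 23284 gene symbols of the data. The cells were HT-29, a long-established line from a human colon adenocarcinoma, of which 9 monolayer cultures received DMSO vehicle (0 µM), 5 µM or 10 µM of 5-aza-deoxy-cytidine (5-Aza) for 5 days, with 3 cultures per concentration. 5-Aza is a cytidine analog that is built into DNA and blocks DNA methyltransferases. Paired-end RNA-Seq was made from each culture, and the replicates are separate cultures of a single line.

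DCC and the UNC5 proteins are called dependence receptors, because they can trigger apoptosis when netrin is absent and stop doing so when netrin is bound. Neogenin, the product of NEO1, is the closest relative of DCC and also binds repulsive guidance molecules. SLIT2 bound to ROBO1 repels migrating axons and cells. In colorectal cancer, DCC lies in a region of chromosome arm 18q that is often lost, and promoter methylation of UNC5C and SLIT2 has been described in tumors.

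The values are FPKM, that is, fragment numbers scaled to exon length and library size, as deposited by the authors. Those of a library sum to between 3.69e+09 and 5.91e+09, so they are used as relative levels, and FPKM is already divided by gene length. Depth was estimated from the whole-fragment steps at low values and from transcript lengths, summed over 17559 genes with a length. It lay between 11700000 and 32100000 fragments per library, lowest in 10 µM replicate 1 and highest in 5 µM replicate 3. These depths are approximate, because 67.6% of 1040 calibrating genes lay within 15% of the length relation. Of the 11 colon epithelium markers, none was at 0 in any group. Among the symbols above 0, the lowest percentile of a marker over the libraries ran from 7.22 (CDX1) to 99.9 (KRT8). It was 34 for CDX2, 67.8 for CEACAM5 and 98.8 for EPCAM. The summed level of these markers was 90264203 to 108557958 FPKM at 0 µM, 37692002 to 42350512 at 5 µM and 29613830 to 52075052 at 10 µM. Over 5 neuron markers the sum was 1804 to 2575 FPKM at 0 µM, 14629 to 15590 at 5 µM and 2835 to 3703 at 10 µM, with SNAP25 at 0 in every library. The sums for 7 fibroblast, 5 endothelial and 5 blood cell markers were higher in every 5 µM library than in any control library too. The part of these shifts in the results below was not tested, and in bulk RNA fewer cells of a type and less RNA per cell cannot be told apart.

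Because DNA methyltransferases methylate cytosines mainly in CG dinucleotides, the RefSeq promoter bases of 4 receptor and ligand genes are shown, read 5′ to 3′ with every CG in capitals. They are the 250 bases before the RefSeq start site, taken from a GRCh38.p14 table and matched to a single place each in GRCh37. UNC5C is shown because it was called lower at 10 µM than at 5 µM, and the remaining genes because they are the receptor DCC, the receptor UNC5A and the ligand SLIT2 whose differences did not pass the test.
UNC5C (chr4:96470125-96470374, minus strand): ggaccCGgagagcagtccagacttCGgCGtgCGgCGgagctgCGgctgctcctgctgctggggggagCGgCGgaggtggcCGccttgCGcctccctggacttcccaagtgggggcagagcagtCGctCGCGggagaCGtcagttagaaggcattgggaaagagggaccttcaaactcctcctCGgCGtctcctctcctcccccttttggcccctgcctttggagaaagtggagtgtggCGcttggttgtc
DCC (chr18:49866317-49866566, plus strand): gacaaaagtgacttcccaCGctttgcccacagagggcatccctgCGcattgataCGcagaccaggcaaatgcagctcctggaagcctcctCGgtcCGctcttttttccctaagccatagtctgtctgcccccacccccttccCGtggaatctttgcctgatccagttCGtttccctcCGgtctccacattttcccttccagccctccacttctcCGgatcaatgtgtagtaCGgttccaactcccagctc
UNC5A (chr5:176237310-176237559, plus strand): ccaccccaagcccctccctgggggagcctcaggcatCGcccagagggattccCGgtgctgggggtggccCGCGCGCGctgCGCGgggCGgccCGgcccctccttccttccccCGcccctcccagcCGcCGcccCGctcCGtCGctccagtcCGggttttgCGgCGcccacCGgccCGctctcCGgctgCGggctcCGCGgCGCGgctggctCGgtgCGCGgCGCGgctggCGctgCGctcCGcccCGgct
SLIT2 (chr4:20253278-20253527, plus strand): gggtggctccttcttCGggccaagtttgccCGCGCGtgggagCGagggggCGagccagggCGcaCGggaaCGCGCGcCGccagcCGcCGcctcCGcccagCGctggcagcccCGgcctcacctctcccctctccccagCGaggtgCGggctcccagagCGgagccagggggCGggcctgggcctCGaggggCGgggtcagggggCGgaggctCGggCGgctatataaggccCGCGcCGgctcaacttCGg

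The UNC5C window held 17 CG dinucleotides, a number reached by 39.0% of the 35116 promoters in the same table. DCC held 10 (reached by 52.2%), NEO1 28 (15.9%), SLIT2 30 (12.4%) and UNC5A 36 (4.85%). NTN4 and ROBO1 have 2 start sites each in the table, with 20 and 36 CG for NTN4 and with 9 and 12 for ROBO1. CG was the only motif searched, it reads the same on both strands, and 93.9% of all promoters held at least 1. UNC5B, UNC5D and NTN1 have no entry in that table. The RefSeq start of UNC5C lies 233 bases inside the gene as GENCODE draws it. That of NEO1 lies 192 bases inside, that of UNC5A 40, those of NTN4 34 and 425, and start 2 of ROBO1 748539. For DCC, SLIT2 and start 1 of ROBO1 the RefSeq and GENCODE starts coincide. No methylation was measured, so these counts describe the sequence alone.

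**Figure D1:**
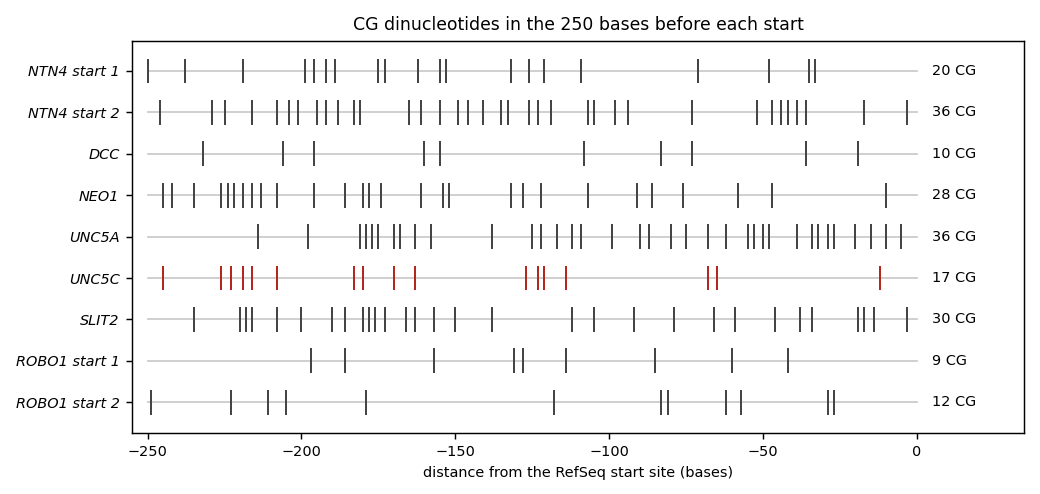
Positions of CG dinucleotides (vertical ticks) in the 250 bases before the RefSeq start site of 7 of the 10 genes, by distance from the start in bases, with UNC5C in red and its 17 CG marked at right. NTN4 and ROBO1 have 2 rows for their 2 start sites, and the counts run from 9 at a ROBO1 start to 36 at UNC5A and at an NTN4 start.

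In untreated HT-29 cells, 3 of the 10 genes were well expressed and the remaining 7 were low. UNC5B was highest at 299063 ± 25032 FPKM (SD, n = 3), followed by NTN4 at 250293 ± 6957 and NEO1 at 145490 ± 5270, and the ranges of these 3 did not overlap. UNC5A followed at 6200 ± 2136 FPKM, NTN1 at 1450 ± 239 and DCC at 1012 ± 313, and the control ranges of NTN1 and DCC overlapped. ROBO1, UNC5C and UNC5D were each listed at 0 in at least 1 control replicate, their ranges overlapped, and SLIT2 was listed at 0 in all 3. Among the symbols above 0 in a library, UNC5B stood between percentiles 77.2 and 83.3 over the 9 libraries, NTN4 between 70.0 and 77.3 and NEO1 between 49.5 and 65.5. DCC stood between 7.32 and 11.7.

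**Figure D2:**
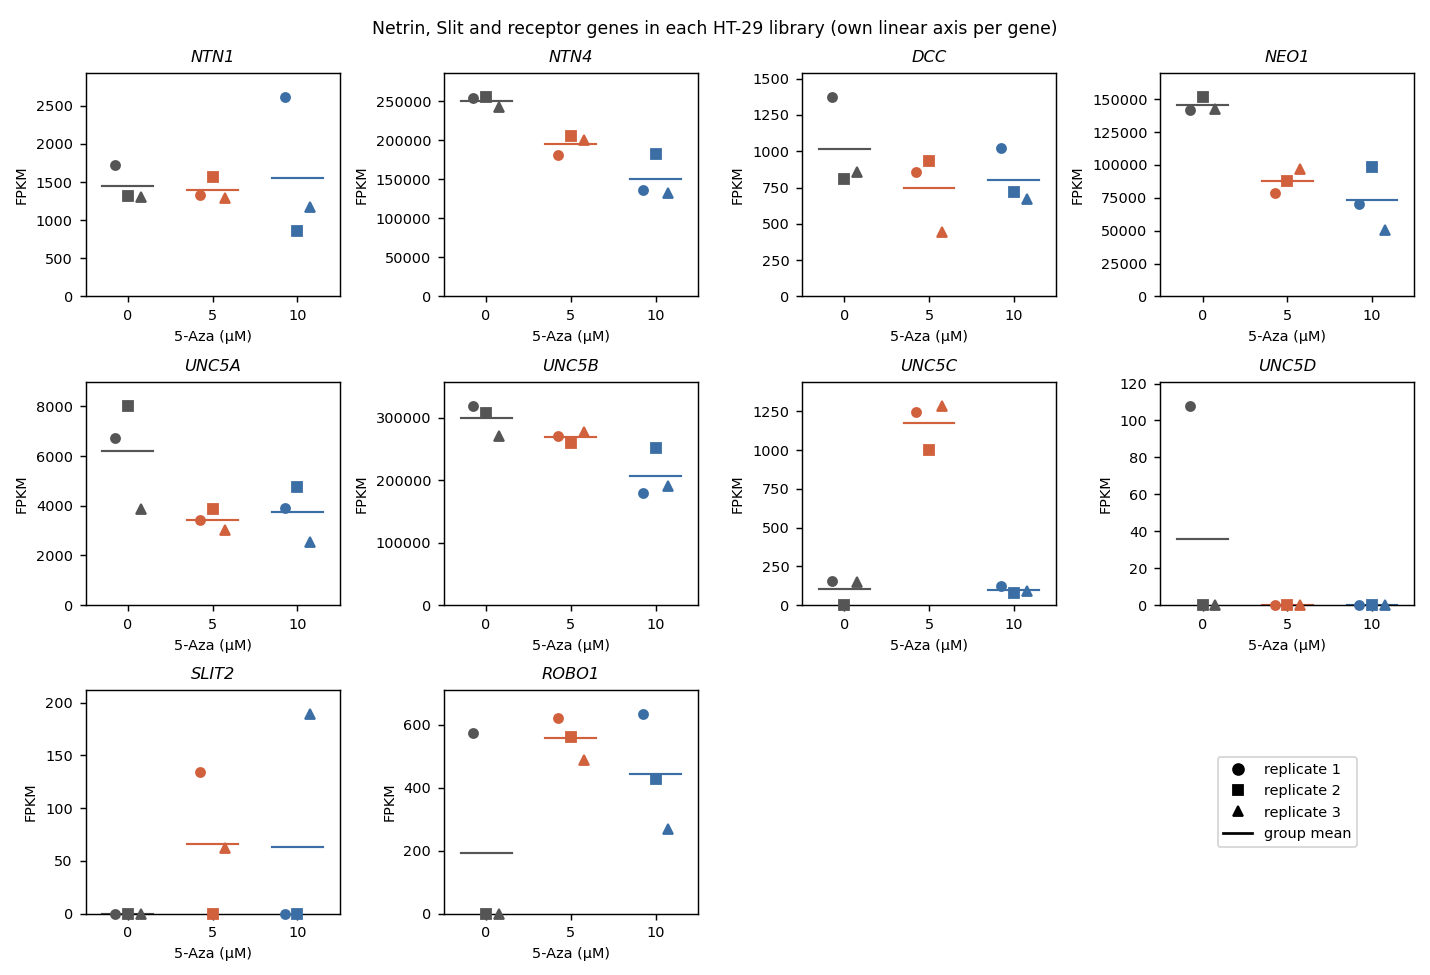
FPKM of the 10 genes (vertical axes, linear and separate for each gene) in the 9 libraries, by 5-Aza concentration in µM, with a symbol for each replicate number and a line at each group mean. UNC5C lies at 1001 to 1287 FPKM at 5 µM and at 158 or less in all other libraries, while NTN4 and NEO1 lie lower at 5 µM than in every control.

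For the comparison of 5 µM vs. 0 µM 5-Aza, which asks how expression responds to a demethylating agent, the call rule was an adjusted p no higher than 0.05 (limma, Benjamini-Hochberg) together with a change of over 1 in either direction on log2(FPKM + 1). None of the 10 genes was called up and none was called down, beside 14.1% of 20051 tested genes called up and 2.17% called down (16.2% in either direction). At an unadjusted p under 0.05, 3 of the 10 were found, beside 48.6% of all tested genes. The median log2 difference over the 10 was -0.25, beside 0.14 over all tested genes. The groups did not overlap for 3 of the 10 genes, UNC5C, NEO1 and NTN4, beside 52.7% of all tested genes.

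From 5 µM to 10 µM, 1 of 9 tested genes was called down, UNC5C, and none up, beside 4.82% of 20085 genes down and 0.129% up (4.95% in either direction). By the adjusted p alone 1 of the 9 passed, beside 6.17% of all tested genes, and the groups did not overlap for 2, UNC5B and UNC5C, beside 29.6%. Between vehicle and 10 µM, 1 of 10 was called down, NEO1, and none up, beside 3.40% of 18928 genes down and 4.07% up (7.48% in either direction). By the adjusted p alone 2 of the 10 passed, beside 15.1%, and the groups did not overlap for 3, NEO1, NTN4 and UNC5B, beside 41.1%. The unadjusted p was under 0.05 for 3 of 9 genes from 5 µM to 10 µM, beside 24.8% of all tested genes, and for 3 of 10 between vehicle and 10 µM, beside 35.5%. The median log2 difference was -0.39 over the 9 genes from 5 µM to 10 µM, beside -0.31 over all tested genes, and it was -0.43 at 10 µM vs. 0 µM, beside -0.15. Over genes above 0 in all 6 libraries the median was -0.04 at 5 µM vs. 0 µM, -0.24 at 10 µM vs. 5 µM and -0.23 at 10 µM vs. 0 µM. Called decreases at 10 µM are therefore also given relative to that median. The comparisons share samples in pairs and are not independent of each other.

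UNC5C, a netrin receptor that mediates repulsion, was the only one of the 10 whose values were low at 0 µM, high at 5 µM and low at 10 µM in every library. The GRCh37 locus (ENSG00000182168) is chromosome 4, 96083655 to 96470357, minus strand, and all gene positions here are in that build. Its values were 158, 0 and 148 FPKM in the control replicates, 1246, 1001 and 1287 FPKM at 5 µM, and 124, 78.5 and 92.7 FPKM at 10 µM. The 5 µM libraries thus lay above all 6 others, and the control and 10 µM ranges overlapped. How many of all genes share this pattern was not counted, so it is not shown to be particular to UNC5C. Groups did not overlap for 52.7% of all tested genes at 5 µM vs. 0 µM and for 29.6% from 5 µM to 10 µM.

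In units of the smallest step common to the libraries, the UNC5C values came to 2, 0 and 4 under vehicle, 38, 29 and 42 with 5 µM, and 2, 2 and 2 with 10 µM. All but 1 of these numbers are even, so 1 fragment may be worth 1 or 2 steps. At 1 fragment per step the implied length is 10620 nucleotides, beside 9642 for the canonical transcript. The low libraries rest on a few fragments each, so ratios and log2 differences to them are imprecise. The percentile of UNC5C among symbols above 0 ran from 1.09 to 14.5 over the 8 libraries where it was above 0.

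The decrease of UNC5C from 5 µM to 10 µM was called, at -3.58 on the log2 scale (SE, the standard error, 0.67; limma adjusted p = 0.0248), or -3.35 relative to the median gene. The log2 difference at 5 µM vs. 0 µM was 5.35 (SE 2.04, limma adjusted p = 0.0835), so this difference was not called although the groups did not overlap. The exact 2-sided permutation test gave p = 0.1 for each, the smallest that 3 against 3 allow. Between vehicle and 10 µM the group means were 102 and 98.4 FPKM, a ratio of 0.967, while the log2 difference was 1.77 (SE 2.18, limma adjusted p = 0.569). The sign of the latter goes against the means, and it was -0.65 without control replicate 2, the library at 0, and -0.0014 with a pseudocount of 1000, so no direction is read from it.

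Both UNC5C results near the threshold turned on settings. With 100 added in place of 1, a setting picked once the data had been seen, the difference at 5 µM vs. 0 µM was called (log2 difference 2.78, adjusted p = 0.00519), and without control replicate 2, the library at 0, it was called too (2.93, adjusted p = 0.0156). Over all settings run, the adjusted p of that difference lay between 0.00177 and 0.356. The fall from 5 µM to 10 µM was not called with the replicate number as a block (adjusted p = 0.0882) or with all 9 samples in one fit (0.23). It was not called when 5 µM replicate 1 (0.0824), replicate 2 (0.0675) or replicate 3 (0.104) was left out, while its log2 difference stayed between -3.76 and -3.44 whichever replicate was removed. Exons of UNC5C overlap those of UNC5C-AS1 on the opposite strand, the sources used here do not state strand, and reads of the pair cannot be told apart.

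The remaining UNC5 receptors did not share that pattern. UNC5B, which lies on chromosome 10 from 72972327 to 73062621, stood at 318981, 307243 and 270964 FPKM under vehicle, 270188, 258811 and 277665 with 5 µM, and 178757, 251006 and 189769 with 10 µM. The control and 5 µM ranges overlapped, and every 10 µM library lay below every other library. Its log2 difference was -0.15 (SE 0.08, limma adjusted p = 0.176) at 5 µM vs. 0 µM and -0.55 (SE 0.16, limma adjusted p = 0.0596) at 10 µM vs. 0 µM. The latter was -0.31 relative to the median gene. UNC5B rested on an estimated 1856 to 5836 fragments per library.

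UNC5A, on chromosome 5 from 176237520 to 176307899, stood at 6714, 8032 and 3854 FPKM under vehicle, 3421, 3885 and 3030 with 5 µM, and 3919, 4745 and 2546 with 10 µM. Control replicate 3 lay inside the range of the treated libraries, and the groups overlapped. The log2 difference at 5 µM vs. 0 µM was -0.79 (SE 0.35, limma adjusted p = 0.122). Without control replicate 3 it was -1.10 and the gene was called down (adjusted p = 0.0269), with an adjusted p between 0.0269 and 1 over its settings. Its counts ran from 20 to 56 estimated fragments. Exons of UNC5A overlap those of HK3, which encodes a hexokinase, on the opposite strand, and HK3 itself stood at 104 to 1051 FPKM.

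UNC5D was above 0 in a single library, control replicate 1, at 108 FPKM. That value was taken as 1 estimated fragment, which a single value above 0 gives by construction. UNC5D was listed at 0 in the 8 others, a value that does not show the transcript to be absent. It was not tested from 5 µM to 10 µM, and the adjusted p was 0.445 at 5 µM vs. 0 µM.

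DCC, the attractive netrin receptor, remained low at all concentrations. It lies on chromosome 18 from 49866567 to 51062269, and its exons overlap those of the long noncoding RNA gene LINC01917 on the opposite strand, whose reads cannot be told apart from its own. Its values were 1372, 808 and 857 FPKM under vehicle, 856, 934 and 444 with 5 µM, and 1020, 721 and 672 with 10 µM, or between 15 and 28 estimated fragments in each library. The 3 groups overlapped, and the log2 difference at 5 µM vs. 0 µM was -0.47 (SE 0.54, limma adjusted p = 0.499).

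NEO1 was lower in treated cells. It lies on chromosome 15 from 73344051 to 73597546. Its values were 142048, 151557 and 142864 FPKM under vehicle, 78365, 88008 and 97052 with 5 µM, and 70538, 98408 and 50676 with 10 µM, with an estimated 732 to 2589 fragments per library. Every treated library lay below every control, while the 5 µM and 10 µM ranges overlapped. Over the vehicle mean, the ratio of group means was 0.604 with 5 µM and 0.503 with 10 µM.

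The NEO1 log2 difference at 5 µM vs. 0 µM was -0.73 (SE 0.09, limma adjusted p = 0.00177), which passed the test and stayed within the 2-fold limit. At 10 µM vs. 0 µM it was -1.04 (SE 0.23, limma adjusted p = 0.0296), and NEO1 was called down. That call lies at the fold limit, since relative to the median gene the difference was -0.81, and after median-of-ratios scaling it was -0.80 with an adjusted p of 0.0218. It was also lost without 10 µM replicate 3 (-0.80, adjusted p = 0.063) or replicate 1 (-1.04, adjusted p = 0.0891). Without control replicate 1, 2 or 3 the adjusted p was 0.0885, 0.11 and 0.0756, and over all settings it ran from 0.00534 to 1. From 5 µM to 10 µM the log2 difference was -0.31 (SE 0.25, limma adjusted p = 0.465).

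Across the 9 libraries, the genes whose log2(FPKM + 1) followed NEO1 most closely were ABHD2, TNIK and GALNT7, among 6990 genes above 0 in all libraries and of at least its mean level. Pearson's r was 0.997, 0.995 and 0.995 over 9 libraries that share the same 3 groups and depths, so it is given as a description alone.

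**Figure D3:**
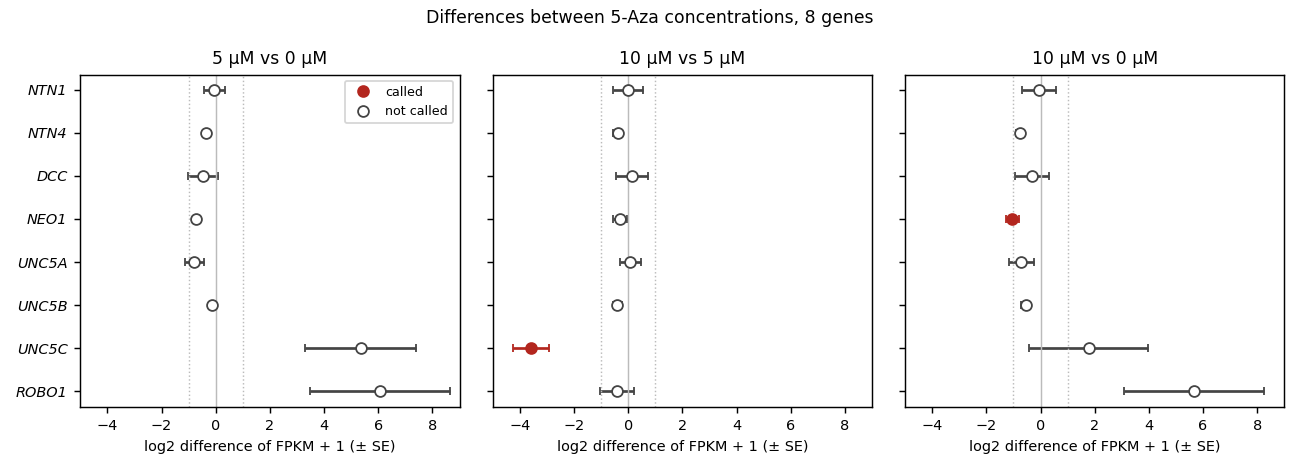
Log2 difference of FPKM + 1 (horizontal axis, with standard error) for 8 genes in the 3 comparisons of 5-Aza concentrations, filled red where called and open where not, with dotted lines at -1 and 1. UNC5C from 5 µM to 10 µM (-3.58) and NEO1 at 10 µM vs. 0 µM (-1.04) are the called values, and SLIT2 and UNC5D are left out because a whole group was listed at 0.

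Of the ligands, NTN4 was well expressed and lower after treatment. It encodes netrin-4, a basement membrane netrin related to the laminin beta chain, and lies on chromosome 12 from 96051583 to 96184967. Its values were 253443, 255119 and 242318 FPKM under vehicle, 181004, 205871 and 199934 with 5 µM, and 135942, 182483 and 132877 with 10 µM. All treated libraries lay below all controls, and the 5 µM and 10 µM ranges overlapped by 1 library. The log2 difference was -0.36 (SE 0.07, limma adjusted p = 0.00938) at 5 µM vs. 0 µM and -0.75 (SE 0.15, limma adjusted p = 0.0229) at 10 µM vs. 0 µM. Both passed the test and stayed within the 2-fold limit, and relative to the median gene they were -0.32 and -0.52. With NEO1, NTN4 was one of 2 genes of the 10 that passed the adjusted p alone at 5 µM, beside 39.0% of all tested genes.

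NTN1, the founding netrin and ligand of DCC and the UNC5 receptors, was low. It lies on chromosome 17 from 8924827 to 9147317. It stood at 1726, 1319 and 1306 FPKM under vehicle, 1325, 1568 and 1290 with 5 µM, and 2612, 859 and 1170 with 10 µM, or 13 to 27 estimated fragments per library. The groups overlapped, and 10 µM replicate 1 was the highest of all libraries. The log2 difference was -0.05 (SE 0.38, limma adjusted p = 0.927) at 5 µM vs. 0 µM, and its sign changed in each comparison under some settings.

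SLIT2 was above 0 in 3 libraries of treated cells, 5 µM replicates 1 and 3 at 134 and 62.5 FPKM and 10 µM replicate 3 at 189 FPKM. These are the worth of 2, 1 and 2 estimated fragments. The step behind these numbers implies a length of 5205 nucleotides, beside 8053 for the canonical transcript, so they are approximate. SLIT2 was listed at 0 in the control replicates, where 1 fragment would have been worth 161, 107 and 75.4 FPKM, so no fold is given. The limma adjusted p was 0.153 at 5 µM vs. 0 µM, and SLIT2 was called up without 5 µM replicate 2 (0.00807), the 5 µM library at 0. Over the settings that could be run it lay between 0.00807 and 0.557. The gene lies on chromosome 4 from 20253528 to 20622184. It hosts the microRNA gene MIR218-1, which was listed at 0 in all 9 libraries, as was MIR218-2. The libraries were made from purified mRNA with size selection, so these values do not show the microRNAs to be absent. SLIT2-IT1, a transcript within SLIT2, was listed at 1529 FPKM in 5 µM replicate 3, one of the 3 libraries with SLIT2 above 0, and at 0 in the 8 others.

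ROBO1, the Slit receptor, lies on chromosome 3 from 78646389 to 79817148 on the minus strand. It stood at 575, 0 and 0 FPKM under vehicle, 623, 562 and 488 with 5 µM, and 634, 427 and 270 with 10 µM. It was thus above 0 in 1 of 3 control libraries and in 6 of 6 treated libraries, and the value of control replicate 1 lay inside the treated range. Its estimated fragments numbered 12.4, 10.6 and 10.4 at 5 µM and between 3.81 and 7.09 at 10 µM, beside 4.76 in control replicate 1.

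The log2 difference of ROBO1 at 5 µM vs. 0 µM was 6.06 (SE 2.57, limma adjusted p = 0.11) and compares with a control group in which 2 of 3 libraries were listed at 0. Without control replicate 1 it was called at 5 µM (9.12, adjusted p = 0.00299) and at 10 µM (8.71, adjusted p = 0.043), and over all settings the adjusted p ran from 0.00299 to 0.432 at 5 µM and from 0.043 to 1 at 10 µM. A pseudocount changes these sizes, and the exact 2-sided permutation p was 0.3 in both comparisons with the control.

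The same comparisons were made for 35 other genes of the netrin and Slit pathway, all found in the files and 32 of them tested. At 5 µM vs. 0 µM, 5 of the 32 were called up and none down, beside the 14.1% of all tested genes called up and the 2.17% called down. The median log2 difference over the 32 was -0.12, beside 0.14 over all tested genes. The 5 genes were 2 further ligands, RGMA and NTNG2, and 3 receptors or co-receptors, DSCAML1, ROBO3 and GPC1. With 10 µM vs. 0 µM, 1 gene of 32 was called up (GPC1) and none down, beside 4.07% of all tested genes up and 3.40% down. From 5 µM to 10 µM none was called by limma in either direction, beside 4.95% of all tested genes, and 7 of 32 had an unadjusted p under 0.05, beside 24.8%.

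RGMA, a repulsive guidance molecule that binds neogenin, stood at 1072, 177 and 502 FPKM under vehicle, 4788, 5158 and 3174 with 5 µM, and 0, 667 and 157 with 10 µM. Its log2 difference was 3.22 at 5 µM vs. 0 µM (SE 0.72, limma adjusted p = 0.0147) and -6.50 from 5 µM to 10 µM (SE 2.22, limma adjusted p = 0.138). The 5 µM libraries lay above all others, as for UNC5C, a pattern that was not counted over all genes. The fall to 10 µM was called with a pseudocount of 100 or 1000. NTNG2, a membrane-anchored relative of the netrins, stood at 0, 0 and 124 FPKM under vehicle, 881, 695 and 412 with 5 µM, and 0, 0 and 156 with 10 µM. It was called up at 5 µM (log2 difference 6.98, standard error 2.06, adjusted p = 0.0379) on 4 to 8 estimated fragments.

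DSCAML1, a homolog of the netrin receptor DSCAM, rose at 5 µM by 3.38 on the log2 scale (adjusted p = 0.0292 by limma), on 18, 17 and 67 estimated fragments in the 5 µM libraries. ROBO3, a ROBO family receptor, rose by 1.47 (adjusted p = 0.00274) and stood at 5994 ± 934 FPKM under vehicle, 16655 ± 2578 with 5 µM and 13098 ± 4759 with 10 µM (SD, n = 3). GPC1, a cell surface heparan sulfate proteoglycan that binds Slit proteins, was at 31696 ± 5126 FPKM under vehicle, 122004 ± 13951 with 5 µM and 87122 ± 7920 with 10 µM (SD, n = 3). Its log2 difference was 1.95 at 5 µM (SE 0.15, limma adjusted p = 0.000401) and 1.47 at 10 µM (SE 0.18, limma adjusted p = 0.00592), each vs. 0 µM. At 5 µM, GPC1 was called under all settings run, and each of the other 4 lost its call under at least 1 of them.

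**Figure D4:**
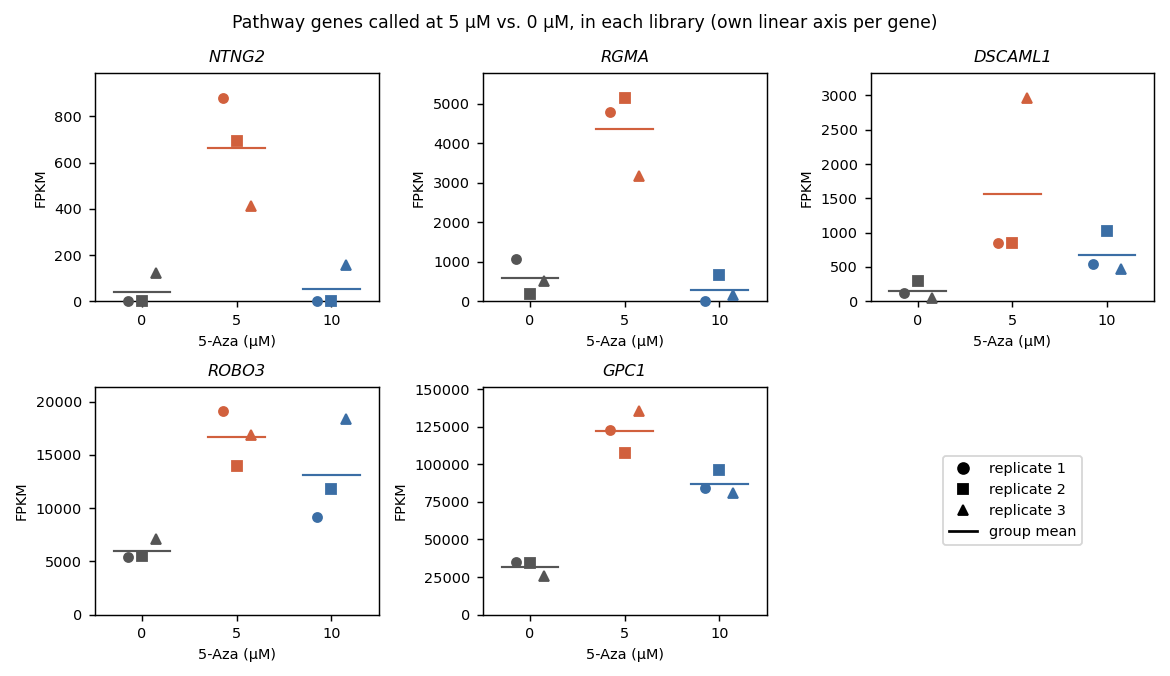
FPKM of the 5 pathway genes called at 5 µM vs. 0 µM (vertical axes, linear and separate for each gene) in the 9 libraries, by 5-Aza concentration in µM, with a symbol for each replicate number and a line at each group mean. RGMA and NTNG2 lie high at 5 µM only, at 3174 to 5158 and 412 to 881 FPKM, whereas GPC1 at 10 µM (81011 to 96070) stays above every control.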

How the data were processed

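RNA-Seq libraries of 9 HT-29 cultures were grouped by the concentration in their sample titles. The deposited FPKM values were computed by the authors in Cufflinks from paired reads trimmed by FASTX-Toolkit and mapped by TopHat, with hg19 as the genome. The annotation version is not given in the sources used here. Each file held 24934 entries, and entries of the 543 symbols listed more than once were added up. On the log2(FPKM + 1) scale, genes entered a test if a value of 10 or more occurred in one of its groups. Pairs of groups were compared with limma 3.58.1 in R 4.3.3 (lmFit, eBayes with an intensity trend, Benjamini-Hochberg adjustment over all tested genes), after tests on simulated data. Changes were simulated only in genes of higher mean level than UNC5A. Those tests therefore do not show how well changes in UNC5A or the members below it are found. Other steps used Python with numpy 2.4.6, pandas 2.3.3 and scipy 1.17.1.

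Fragments were estimated from steps. At 12 microRNA genes of 110 nucleotides, 46 of 46 values above 0 were whole multiples of 1 step per library (tolerance 0.02). The step of a library was the smallest of these values in it, so that value was a whole multiple by construction. For genes without a clean step, the canonical GENCODE transcript length was used. Of 1040 genes calibrating that relation, 67.6% lay within 15% of it, so those numbers are approximate. Intervals were not computed, and counting error of low genes is not modelled by the test.

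The rule for named genes was the 10 members, the pathway genes called in any comparison, and the 3 genes most correlated with a called member above 0 in all libraries. The members and lists were chosen with earlier results of these data known. Alternatives were pseudocounts of 0.1, 100 and 1000, other filters, no fold limit, limma's treat, a fit of all 9 samples, a replicate block, median-of-ratios scaling, the largest entry of repeated symbols, and each replicate left out. The replicate numbers come from the titles, and deviations of same-numbered libraries correlated between -0.07 and 0.09 (9 pairs), so the numbers were not taken to pair the cultures.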

Additional observations from a re-analysis of the deposited data

How the results depend on the processing

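Of 485 log2 differences recomputed for the 10 genes, 444 kept their direction and their side of the threshold, 14 were no longer called, 9 became called and 18 changed sign. Other filters, no fold limit, limma's treat, the fit of all 9 samples and the replicate block cannot change the difference itself. Most of the differences were not called in the main fit, so 444 is no measure of stability. Depth limits the results for UNC5C, UNC5D, SLIT2, ROBO1, DCC and NTN1, which rest on few fragments. The causes of the changes were not tested beyond the removal of samples or limits that defines a setting.

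At 5 µM vs. 0 µM, none of the 10 genes was called; 1 was called with a pseudocount of 100 (UNC5C, chosen after seeing the data) and 2 without a fold limit (NEO1 and NTN4, both lower). With each replicate left out, 0 to 1 were called (ROBO1, UNC5C and SLIT2 as higher, UNC5A as lower, each in a different fit). From 5 µM to 10 µM, the single called gene (UNC5C) became 0 with a pseudocount of 1000, with limma's treat, with all 9 samples in one fit and with the replicate block, and 0 to 1 with each replicate left out. At 10 µM vs. 0 µM, the single called gene (NEO1) became 2 without a fold limit (with NTN4), 0 with limma's treat and 0 with median-of-ratios scaling. With each replicate left out 0 to 1 were called, NEO1 only without 10 µM replicate 2, and ROBO1, as higher, without 0 µM replicate 1.

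Of the 35 pathway genes, the 5 called at 5 µM vs. 0 µM became 16 without a fold limit (9 higher, 7 lower), 1 with limma's treat, 3 with all 9 samples in one fit and 3 with the replicate block, and 2 to 6 with each replicate left out. From 5 µM to 10 µM, none was called; 1 was called with a pseudocount of 1000 or 100 (RGMA), and 0 to 2 with each replicate left out. At 10 µM vs. 0 µM, the 1 called gene became 7 without a fold limit (1 higher, 6 lower), 0 with limma's treat, 2 with all 9 samples in one fit and 3 with median-of-ratios scaling, and 1 to 2 with each replicate left out. The replicate block changed no other count beyond 1.5 times.

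Changes of sign occurred in differences that were not called. For NTN1 from 5 µM to 10 µM, -0.01 became 0.031 with a pseudocount of 1000, 0.00026 with 100 and 0.19 with median-of-ratios scaling, and between -0.47 and 0.33 with each replicate left out; the exact permutation p at a pseudocount of 1000 was 1. At 10 µM vs. 0 µM, NTN1 was 0.18 with median-of-ratios scaling and between -0.52 and 0.28 with each replicate left out, and at 5 µM vs. 0 µM it was between -0.14 and 0.08 with each replicate left out. For UNC5C at 10 µM vs. 0 µM, a pseudocount of 1000 gave -0.0014 (exact permutation p = 1), and the values with each replicate left out ran between -0.65 and 3.00. From 5 µM to 10 µM, DCC ran between -0.18 and 0.36 and UNC5A between -0.12 and 0.33 with each replicate left out.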
